A study of Caenorhabditis elegans with 7 samples.

Results

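A set of 35 worm genes stood near their unheated level on the mean of 2 and 4 h at 30 °C. On the mean of 10 and 12 h they stood well above it, though for 21 of them 1 late array was less than 1.2 above 0 h. They came from 5315 named genes that had a value on every array, out of 7534 genes on a named probe. The animals were adult Caenorhabditis elegans of strain CF512, which is known to carry temperature-sensitive alleles of the fertility genes fer-15 and fem-1. They were grown to adulthood at 25 °C, where this strain makes no progeny, and then moved to 30 °C. Total RNA was hybridised to 7 two-colour arrays, 1 for each of 0, 2, 4, 6, 8, 10 and 12 h, and each array also carried a common reference RNA named HS1. The 0 h array is the unheated baseline, and the labels name no other genotype, agent, sex or unheated animals kept for the same hours. Hours of heating and further adult age therefore cannot be told apart.

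Each value is a log ratio of worm RNA to reference for 1 gene on 1 array, after the median of that array was subtracted, and is taken to be of base 2. No time point has a replicate, so a difference between 2 arrays has no error of its own. Which channel is on top of the ratio is not recorded in the labels. Worm over reference is the likely direction, since the HSP70 chaperone genes F44E5.4 and F44E5.5, which heat is known to induce, were at 0.91 and 0.83 at 2 h, against the lower limit of the file at 0 h (-4.98 after centring, for both). With the sign turned, every gene described here as higher would be lower. An array had values for 16143 to 16972 of its 19200 probes. The correlation over probes between any pair of arrays lay between -0.21 (12 h and 0 h) and 0.45, and the SD over probes was 0.497 to 0.585 on the heated arrays, against 0.634 at 0 h. Of the 16 single genes and the families of sperm and yolk genes listed as tissue markers, 0 were on a named probe, so the tissue make-up of the animals was not checked. In RNA from whole animals, fewer cells of a type and less RNA per cell cannot be told apart.

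Heat shock in worms is best known for its fast arm, in which the transcription factor HSF-1 switches on chaperone genes that keep other proteins folded. Later changes under lasting heat are mixed, since animals then also alter metabolism, translation and defence. Transfer RNAs, one class among the 35 genes, carry amino acids to the ribosome and are made by RNA polymerase III, whereas messenger RNAs are made by RNA polymerase II. Most of the 35 genes, like most of all genes measured, have only a sequence name, made of a clone and a number. A name with .t marks a tRNA gene. No product is paired with these names in the tables used here, and no function is given for them.

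The set was chosen on 5 of the 7 arrays. The early difference, the mean of 2 and 4 h minus 0 h, had to lie between -0.5 and 0.5, and the late difference, the mean of 10 and 12 h minus 0 h, had to be at least 1.2. F56H6.2 met both limits too (late difference 3.31) and was set aside by name in the rule. Early and late differences are therefore descriptions and carry no test. Of all 5315 genes, 3651 had an early difference within the limits and 178 (3.35%) a late difference of 1.2 or more. The late difference of the 35 genes had a median of 1.51 (range 1.22 to 3.38), against a median of 0.04 over all genes. Their early difference had a median of 0.28, against 0.02 over all genes.

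Just inside the lower limit of the late difference were K10C9.7 (1.22), T25G12.3 (1.22) and hrpk-2 (1.23). Just outside it were F52C9.3 (1.19), C04C3.4 (1.19) and nssp-87 (1.17). At the upper limit of the early difference, F21H12.3 (0.48) and ZC443.3 (0.47) were inside, and F40E3.6 (0.51) and the pseudogene K03D7.9 (0.52) were outside. At the lower limit, C33A12.4 (-0.48) and T14G8.2 (-0.36) were inside, and 1 gene with a high late difference, Y73F8A.12 (-0.52), was just outside.

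Of the 35 genes, 29 were protein-coding, 4 were tRNA genes and 2 were pseudogenes. A gene symbol other than the sequence name was found for 2, hrpk-2, named for the RNA-binding protein hnRNP K, and rml-4. The other 33 had a sequence name only, as did 4364 of all 5315 genes, so this is mostly a trait of the annotation. The median ratio of the 35 genes to the reference was -0.70 at 0 h, -0.64 at 2 h, -0.36 at 4 h, -0.04 at 6 h, 0.22 at 8 h, 0.53 at 10 h and 0.91 at 12 h. The ratio lay above 0 for 0 of the 35 genes at 0 h (49.03% of all genes), for 33 at 10 h (49.5%) and for 33 at 12 h (51.7%), on arrays that define the set. The highest ratio of a gene was at 12 h for 22 genes, at 10 h for 10 and at 6 h for 3.

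**Figure D1:**
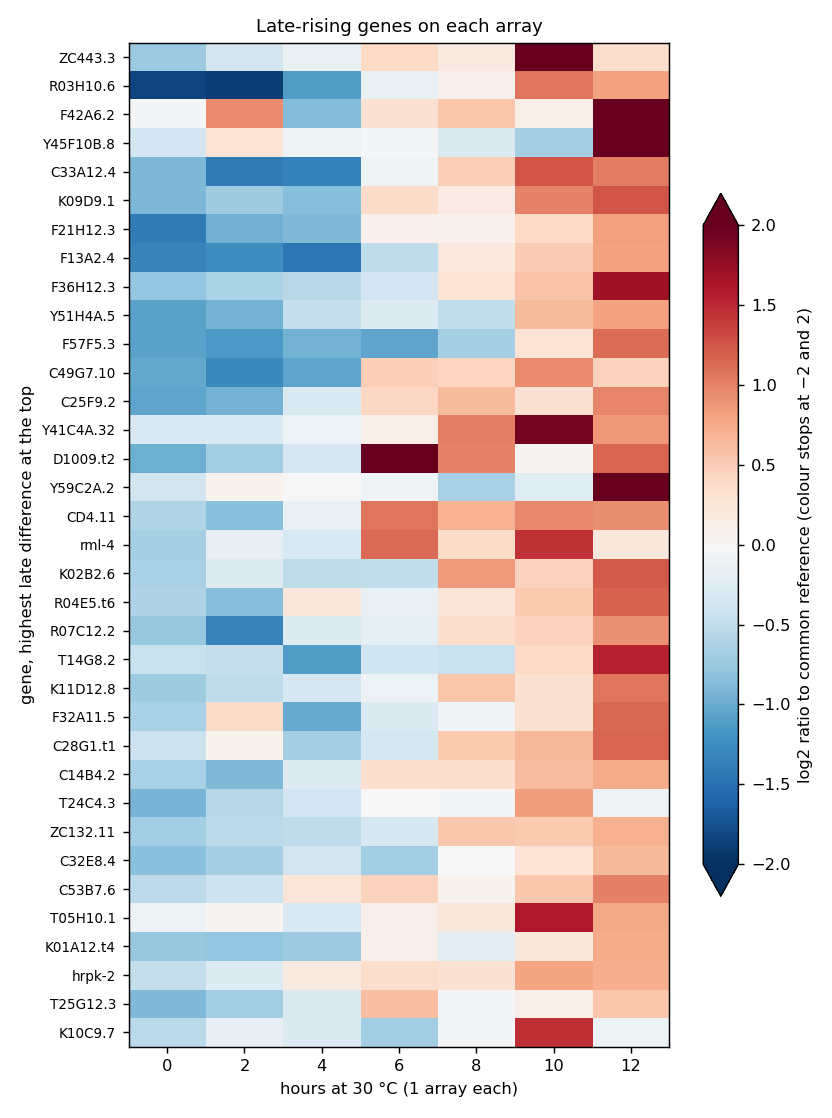
Log2 ratio to the common reference (colour) of the 35 late-rising genes (rows, highest late difference at the top) on each of the 7 arrays (columns, hours at 30 °C). Most rows are blue at 0 to 4 h and red at 10 and 12 h, with the median at 0.91 at 12 h, against -0.70 at 0 h, and a few rows owe their place to 1 dark red cell. Colour stops at -2 and 2.

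The 2 late arrays passed 1.2 together for only some of the genes. Both lay 1.2 or more above 0 h for 14 of the 35 genes, while for 14 others the 10 h array and for 7 others the 12 h array fell short of 1.2. Some fell short by little, such as hrpk-2 (1.26 at 10 h and 1.198 at 12 h), and a gene whose mean is near 1.2 will often have 1 array under it. Over all genes both arrays passed 1.2 for 2.3%, and the rule used these arrays, so nothing is read from the count. The arrays at 12 and 10 h were 1.2 or more apart for 6 of the 35, against 3.29% of all genes. Both late arrays stood above all 5 earlier ones for 18 of the 35 genes, against 7.68% of all genes. For 8 genes only the 12 h array did (14.8% of all genes), for 6 only the 10 h array (9.44%), and for 3 neither. These comparisons, including the gap of 1.2, rest mostly on arrays the rule used, so nothing is read from them.

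Neighbouring arrays were compared in a fit of 4 windows (0 h, 2 and 4 h, 6 and 8 h, 10 and 12 h). The residual SD within windows had a median of 0.33 for the 14 genes high on both late arrays and 0.54 for the other 21, against 0.25 over all genes. Asking for both late arrays favours genes whose 10 and 12 h values are alike, so nothing is read from the gap between the 14 and the 21. Late arrays minus early arrays gave a median of 1.63 over the 14 genes and 1.16 over the 21. It was 1.2 or more for 22 of the 35 genes, against 1.41% of all genes, again on arrays the rule used. The standard errors below come from that fit and rest on how far neighbouring arrays differ. The variance of each gene was first drawn toward a value shared by all features. The residual SD and the standard error were thus 0.15 and 0.22 for K09D9.1, and 1.88 and 1.21 for ZC443.3.

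R03H10.6 had the highest late difference among the 14, at 2.77. Its ratio was -1.84 at 0 h, -1.90 at 2 h, -1.12 at 4 h, -0.15 at 6 h, 0.10 at 8 h, 1.06 at 10 h and 0.80 at 12 h. All 4 arrays after 4 h thus lay above the first 3, and late minus early was 2.44 (SE 0.30). C33A12.4 stood at -0.91 at 0 h, -1.41 at 2 h, -1.36 at 4 h, -0.06 at 6 h, 0.48 at 8 h, 1.26 at 10 h and 1.02 at 12 h. It dipped below its baseline early, so that late minus early (2.53, SE 0.25) was larger than its late difference of 2.05.

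K09D9.1 showed a step between 4 and 6 h. It was at -0.91, -0.71 and -0.85 at 0, 2 and 4 h, then at 0.37 at 6 h, 0.16 at 8 h, 0.99 at 10 h and 1.25 at 12 h, and late minus early was 1.90 (SE 0.22). C49G7.10 had the same kind of step, with -1.03, -1.29 and -1.06 at 0, 2 and 4 h and 0.47, 0.43, 0.95 and 0.46 at 6, 8, 10 and 12 h (late minus early 1.88, SE 0.24). In the WBcel235 order of protein-coding genes, pseudogenes and tRNA genes, these genes lie close together on chromosome V, with 4 genes between them. C49G7.13, the only one of those 4 measured on all arrays, had a late difference of 0.60. No pair of the 35 genes lay within 3 places of each other, and this pair was the closest and was picked out after its values were seen.

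F21H12.3 was at -1.39, -0.95 and -0.88 at 0, 2 and 4 h, at 0.09 at both 6 and 8 h, and at 0.41 and 0.82 at 10 and 12 h. F13A2.4 kept its low level longer, with -1.33, -1.24, -1.45 and -0.51 at 0, 2, 4 and 6 h, and reached 0.20, 0.50 and 0.81 at 8, 10 and 12 h. Late minus early was 1.53 (SE 0.23) for F21H12.3 and 2.00 (SE 0.29) for F13A2.4. Neither gene had an early array above a late one.

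Among the 14, only F57F5.3 and Y51H4A.5 still had a ratio below 0 at 8 h. F57F5.3 was at -1.06, -1.16, -0.95, -1.05 and -0.67 at 0, 2, 4, 6 and 8 h, and then at 0.28 at 10 h and 1.12 at 12 h. Y51H4A.5 was at -1.08, -0.94, -0.48, -0.26 and -0.49 at 0 to 8 h, and at 0.64 and 0.81 at 10 and 12 h. For both genes the 10 h array was the first to pass the midpoint between the 0 h ratio and the late mean.

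F36H12.3 climbed through -0.77, -0.64, -0.55, -0.39, 0.27, 0.57 and 1.69 on the arrays at 0 to 12 h, each array above the one before it. Late minus early was 1.75 (SE 0.32) for F57F5.3, 1.43 (SE 0.25) for Y51H4A.5 and 1.72 (SE 0.39) for F36H12.3.

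CD4.11 was the opposite case within the 14, with its highest ratio at 6 h. It stood at -0.60, -0.84 and -0.14 at 0, 2 and 4 h, and at 1.07, 0.69, 0.97 and 0.92 at 6, 8, 10 and 12 h. R07C12.2, a pseudogene, was at -0.76, -1.33, -0.26, -0.20, 0.36, 0.46 and 0.91 over the same hours. ZC132.11 was at -0.68, -0.54, -0.51, -0.31, 0.53, 0.52 and 0.72, with the change falling between 6 and 8 h.

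The remaining 2 of the 14 genes, C25F9.2 and C14B4.2, are each on 2 probes that disagree. One probe of C25F9.2 had a late difference of 3.06 and the other 0.34, and one probe of C14B4.2 had 2.68 and the other -0.05. The averages that put them in the set were 1.70 and 1.32. The strong probes had early differences of 0.79 (C25F9.2) and 1.06 (C14B4.2), outside the limits, so no single probe of either gene met the rule. These genes lie on chromosome V with 15 genes between them, counting protein-coding genes, pseudogenes and tRNA genes. Of those, 4 were measured on all arrays, with late differences of 1.32 (C25F9.6), -0.01 (Y43F8A.2), -0.33 (slcr-46.2) and -3.42 (C25F9.4).

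At the top of the list, 3 genes rest on 1 array at the upper limit of the file. ZC443.3 was at -0.73, -0.36, -0.15, 0.40 and 0.17 at 0 to 8 h, at 4.94 at 10 h and at 0.36 at 12 h. F42A6.2 was at -0.03, 0.94, -0.88, 0.30, 0.55 and 0.14 at 0 to 10 h and at 4.94 at 12 h. Y45F10B.8 was at -0.38, 0.28, -0.11, -0.04, -0.28 and -0.67 at 0 to 10 h and at 4.94 at 12 h.

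Each of these genes was thus high on 1 of the late arrays and not on the other, and the late difference of Y45F10B.8 without the 12 h array was -0.29. A deposited value stops at 5, which is 4.94 after centring, so these ratios are lower bounds. Late minus early had standard errors of 1.21 (ZC443.3), 1.35 (F42A6.2) and 1.47 (Y45F10B.8), against a median of 0.32 over the 35 genes.

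Y59C2A.2 likewise stood at -0.36, 0.07, -0.01, -0.07, -0.64 and -0.24 at 0 to 10 h and at 2.67 at 12 h. The 10 h array alone carried K10C9.7, whose late difference was made from different probes. One of its 2 probes had no value at 10 h and the other none at 6 h, and the 10 h ratio of 1.46 came from a single probe that was at -0.06 at 12 h. With only probes measured on all 7 arrays averaged, K10C9.7 left the set and 34 genes stayed.

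**Figure D2:**
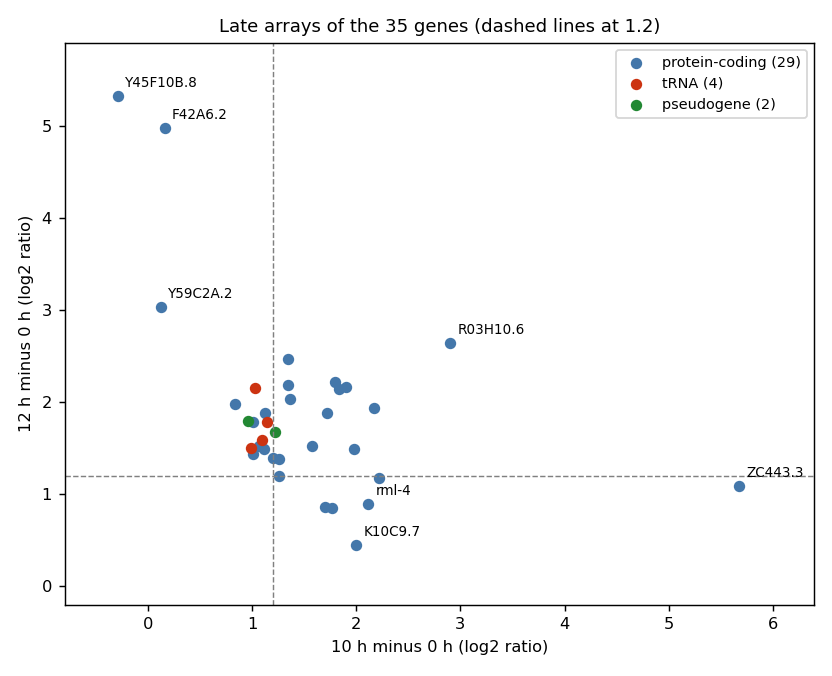
Difference of the 12 h array from 0 h (vertical axis, log2 ratio) against that of the 10 h array from 0 h (horizontal axis, log2 ratio) for each of the 35 genes, coloured by gene type. The 14 genes right of and above both dashed lines at 1.2 are high on both late arrays. ZC443.3, F42A6.2, Y45F10B.8 and Y59C2A.2 lie far along 1 axis only.

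Among the other members, rml-4 was at -0.66, -0.17 and -0.31 at 0, 2 and 4 h, and at 1.13, 0.37, 1.45 and 0.23 at 6, 8, 10 and 12 h, so that high and low arrays alternated. Its late minus early difference was 1.08 (SE 0.42). hrpk-2 changed little from array to array, at -0.47, -0.26, 0.18, 0.35, 0.28, 0.78 and 0.72 over 0 to 12 h. It had already passed the midpoint between its 0 h ratio and its late mean at 4 h, and late minus early was 0.79 (SE 0.23), the lowest of the 35.

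Y41C4A.32 was at -0.31, -0.31 and -0.12 at 0, 2 and 4 h and at 0.14, 1.01, 1.91 and 0.86 at 6, 8, 10 and 12 h, highest at 10 h. T14G8.2 stayed between -1.12 and -0.39 at 0 to 8 h and was at 0.40 at 10 h and 1.54 at 12 h. T05H10.1 stayed between -0.31 and 0.22 at 0 to 8 h and was at 1.60 at 10 h and 0.76 at 12 h. Both of these genes passed their midpoint at 10 h.

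Apart from tRNA genes, the 7 members not yet described had late differences between 1.22 and 1.501. K02B2.6 (1.501), K11D12.8 (1.39) and C32E8.4 (1.30) were higher at 8 h than at 6 h by 1.35, 0.66 and 0.68. T24C4.3 (1.31) was at -0.08 at 12 h, against 0.83 at 10 h, its highest array. The pseudogene F32A11.5 (1.38) was at -1.01 at 4 h, against 0.37 at 2 h, so its early difference of 0.33 is a mean of unlike arrays. C53B7.6 (1.29) was already at 0.24 at 4 h, against -0.52 at 0 h. T25G12.3 (1.22) was highest at 6 h, at 0.61, above both late arrays.

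The arrays at 6 and 8 h took no part in the early and late differences. Of the 35 genes, 1 first passed the midpoint between its 0 h ratio and its late mean at 2 h, 3 at 4 h, 12 at 6 h, 10 at 8 h, 6 at 10 h and 3 at 12 h. The rule keeps the mean of 2 and 4 h below that midpoint and puts at least 1 late array above it. These counts are therefore partly fixed by the rule and are descriptions only. A gene may fall back after its first pass, as F32A11.5 did (0.37 at 2 h, -1.01 at 4 h). The mean of 6 and 8 h was 0.5 or more above the mean of 2 and 4 h for 20 of the 35 genes, against 8.07% of all 5315 genes. The median of that difference was 0.56, against -0.01 over all genes. The 2 h and 4 h arrays also served to choose the genes, so this difference is only partly free of the rule and was not tested. At 6 h alone, 16 of the 35 genes were 0.5 or more above the early mean, against 9.46% of all genes. The name late-rising thus covers many genes that were above their early level by 6 to 8 h.

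Among the 14 genes high on both late arrays, the middle arrays were 0.5 or more above the early ones for 12, with a median of 1.02. Among the 21 others this held for 8, with a median of 0.39. D1009.t2 had the largest value of all (2.21), followed by C49G7.10 (1.62, SE 0.24) and C33A12.4 (1.59, SE 0.25). Y59C2A.2 (-0.39), Y45F10B.8 (-0.25) and K10C9.7 (-0.13) were the 3 with a value below 0, and all 3 rest on 1 late array. The value of K10C9.7 mixes probes, since only 1 of its 2 probes (-0.69) had a value at 6 h. Its other probe was at 0.57 at 8 h, against -0.58 at 2 h and -0.27 at 4 h.

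The step between 6 and 8 h is free of the rule, except that a gene needed a value on both arrays, and it was small. At 8 h 19 of the 35 genes were higher than at 6 h, against 50.3% of all genes, and the median difference was 0.11, against 0.00 over all genes. A share of 54.3% is near the background and is no result about these genes. The 8 h array was higher by 0.5 or more for 11 of the 35 (31.4%), against 10.9% of all genes, and lower by 0.5 or more for 4 (11.4%), against 9.6%. The 11 include K10C9.7 (0.66), whose only probe with a value at both hours was at -0.69 at 6 h and -0.62 at 8 h. The SD of the 8 h minus 6 h difference was 0.442 over all genes and 0.563 over the 35, and single values should be read against both.

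K02B2.6 was highest in this step, at 0.86 at 8 h and -0.50 at 6 h. Y41C4A.32 (0.87) and the tRNA gene C28G1.t1 (0.86) came next. D1009.t2 had the lowest difference (-1.42), then rml-4 (-0.76) and T25G12.3 (-0.63). These 3 had their highest or second highest ratio at 6 h, above the ratio at 8 h.

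**Figure D3:**
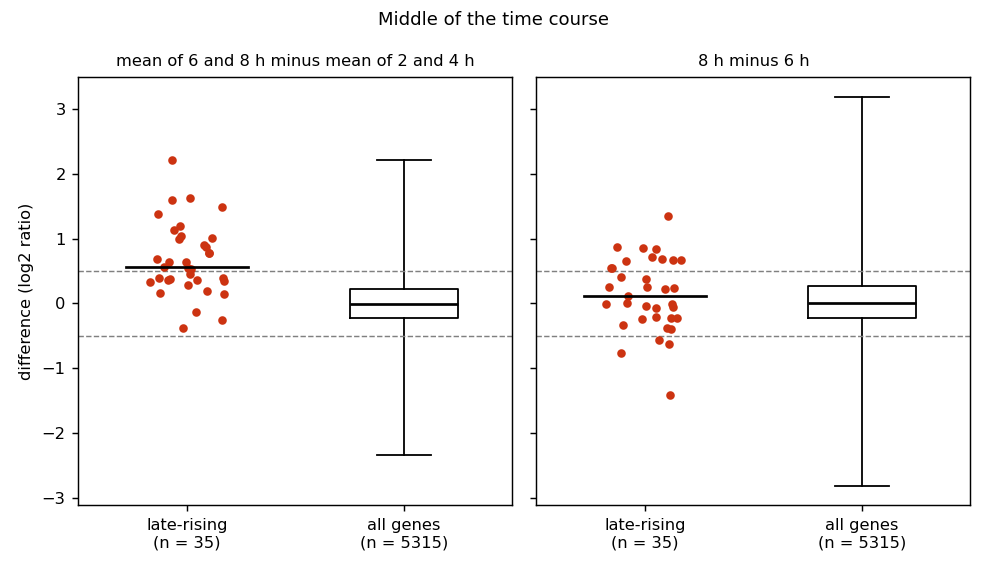
Differences on the middle arrays (log2 ratio) for the 35 late-rising genes (red points, black line at the median) and for all 5315 genes (box from the lower to the upper quartile, whiskers to the lowest and highest value). The left panel plots the mean of 6 and 8 h minus the mean of 2 and 4 h, with medians of 0.56 and -0.01, and the right panel 8 h minus 6 h, with medians of 0.11 and 0.00. Dashed lines mark -0.5 and 0.5.

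The 4 tRNA genes among the members were D1009.t2, R04E5.t6, C28G1.t1 and K01A12.t4. This class was noticed after the values were seen. They make up 11.4% of the 35 genes, against 1.11% (59 genes) of all genes measured, and all 4 lie on chromosome X in the WBcel235 gene table. Chromosome X holds 276 of the 634 tRNA genes listed there. Many tRNA genes are near-identical copies, so a probe may report several of them, and the tables used here hold no probe sequence.

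D1009.t2 was at -0.98, -0.69 and -0.33 at 0, 2 and 4 h, at 2.41 at 6 h, and at 0.99, 0.05 and 1.17 at 8, 10 and 12 h. Its 6 h array was the highest of all 5315 genes at 6 h, and it was high again at 12 h. R04E5.t6 was at -0.61, -0.85, 0.23, -0.15, 0.25, 0.53 and 1.18 over 0 to 12 h. C28G1.t1 was at -0.43, 0.07, -0.67, -0.34, 0.52, 0.67 and 1.16 over the same arrays.

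K01A12.t4 held -0.76, -0.77 and -0.72 at 0, 2 and 4 h, and was at 0.11, -0.22, 0.23 and 0.74 at 6, 8, 10 and 12 h. For all 4 the 12 h array was above the 10 h array, by 0.49 to 1.12, as it was for 24 of the 35 members and 52.6% of all genes. Late minus early was 1.12 (SE 0.52) for D1009.t2, 1.16 (SE 0.40) for R04E5.t6, 1.22 (SE 0.38) for C28G1.t1 and 1.23 (SE 0.26) for K01A12.t4. None of the 4 passed 1.2 above 0 h on the 10 h array, where they lay between 0.98 and 1.14 above it.

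The other tRNA genes on chromosome X were not uniform. Of the 17 measured there, 8 had a late difference of 1.2 or more, the 4 members and 4 that were already 0.5 or more above baseline early, F59C12.t3 (late difference 2.92), ZK678.t3 (2.02), C30E1.t1 (1.96) and K09A11.t1 (1.79). At the other end F43C9.t1 was at -1.37. Of the 42 tRNA genes on other chromosomes, 1 had a late difference of 1.2 or more, ZK994.t3 (1.22).

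The median late difference was 0.98 for the 17 X-linked tRNA genes, 0.19 for the 42 others and -0.17 for 615 protein-coding genes on chromosome X. On the middle against the early arrays, 5 of the 17 X-linked tRNA genes and 2 of the 42 others were 0.5 or more higher, against 8.07% of all genes. The 5 include the members D1009.t2 and K01A12.t4, which were chosen partly on the early arrays. The values for tRNA genes are descriptions of single arrays, and the late difference is the quantity by which the members were chosen.

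**Figure D4:**
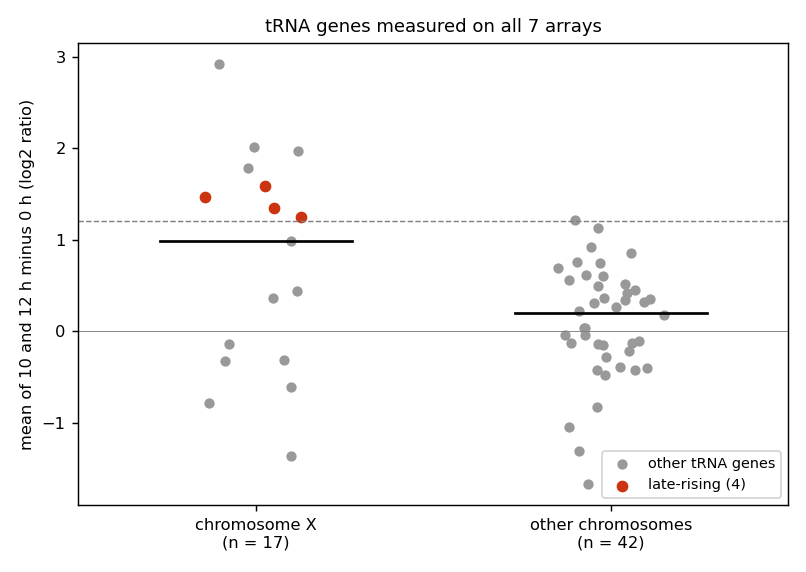
Late difference (mean of 10 and 12 h minus 0 h, log2 ratio) of each tRNA gene measured on all 7 arrays, for 17 genes on chromosome X and 42 on other chromosomes. Red points are the 4 late-rising tRNA genes, black lines mark the medians of 0.98 and 0.19, and the dashed line marks 1.2. Of the X-linked genes 8 lie above the dashed line, and 1 of the others.

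By chromosome, 11 of the 35 genes were on V (31.4%, against 19.8% of all genes), 7 each on IV and X (20.0% each, against 15.8% and 12.6%), 6 on II (17.1%, against 19.9%), 3 on III (8.57%, against 14.7%) and 1 on I (2.86%, against 17.2%). Without the tRNA genes 3 members were on X. The 2 pseudogenes were 5.71% of the set, against 5.95% of all genes, which is the background share.

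Functional lists could say little about this set. Of 22 lists made from gene symbols, 18 had a gene measured on all arrays, 158 genes in all, and 0 of the 35 members were in any of them. In the largest lists, late differences of 1.2 or more were found for 0 of 36 transport genes (median -0.20), 0 of 27 lipid metabolism genes (median -1.06) and 1 of 18 PALS genes (median 0.03), the excepted pals-26. The count was 0 of 12 innate immunity and lectin genes (median -0.16) and 0 of 10 mitochondrial genes (median 0.10). It was 0 of 9 neuropeptide and receptor genes (median -0.06) and 0 of 8 DNA replication and repair genes (median 0.18). For translation it was 0 of 10 genes (median 0.499) and for nucleolar ribosome assembly 0 of 6 (median 0.71), against 3.35% of all genes. In the proteasome list it was 1 of 2, psme-4, which the rule also excepts by name. The lists of heat shock and chaperones, tRNA synthetases, cuticle and transcription factors held 0 genes measured on all arrays under a listed symbol.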

How the data were processed

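The authors deposited 1 log ratio, taken as log2, per probe and array for 19200 probes on 7 two-colour arrays, worm RNA and reference HS1 being the 2 channels per the labels. The log base, the direction, the dyes and every step before deposit, including why some cells are blank, have no description in the labels. Deposited values stop at -5 and 5, reached by 65 probes. Spot signals were not analysed here, so signal over background is unknown. Precision is limited by the number of arrays, the capped values, blank cells (11.6% to 15.9% of probes per array) and probes of a gene that disagree.

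Array medians were subtracted. The platform annotation names 1 gene for 7900 probes. Gene numbers matched the WBcel235 gene table for 7872, and 28 kept the annotation's name. Of the 35 members, 33 matched by number and 2 (C53B7.6, Y59C2A.2) by name. The table served for names, gene types, chromosome and gene order. Probes of a gene were averaged over the values present.

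Limma 3.58.1 in R 4.3.3 was fitted to 13369 features, named genes and unnamed probes, with 4 windows and 3 residual degrees of freedom. Its contrasts use arrays of the rule, so only differences and standard errors are given, with no p-value. The fit was run on simulated data with independent noise and a known late change, but no drift, capped values or mixed probes. That run therefore cannot show how well the standard errors hold for these arrays. Members and lists were chosen with earlier results of these data known. The named genes were the 12 with the highest late difference, those with a symbol, extremes of the 8 h minus 6 h step and genes next to a limit. Other members are named because all 35 are accounted for. Promoter motifs were not searched and no sequence is shown, because no sequence table was used here. Alternatives covered scaling, limits, probes and left-out arrays.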

Additional observations from a re-analysis of the deposited data

How the results depend on the processing

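No paired analysis was possible because no time point was hybridised more than once. The 0 h array cannot be left out of the early and late differences. Requiring both late arrays to pass, averaging complete probes only, restricting other results to the 14 genes high on both late arrays, and equal-deviation scaling of the middle arrays were added after seeing the data. The number of genes that meet the limits was 35. It was 57 without the 4 h array (30 of the 35 among them), 81 without the 10 h array (28), 67 with a late limit of 1, 19 with a late limit of 1.5, 16 with the early difference within 0.3, and 14 with both late arrays at 1.2 or more. It stayed within 1.5 times otherwise, at 26 without the 2 h array (21 of the 35), 44 without the 12 h array (21), 39 without centring (30), 41 with arrays scaled to equal median absolute deviations (26) and 41 with quantile normalization (34). Requiring every probe to pass left 32, as did setting values at the limits of the file to missing. Only 7 of the 35 kept their place under each of the 3 scalings and with each of the 4 arrays left out, namely K09D9.1, F13A2.4, F36H12.3, F57F5.3, C49G7.10, CD4.11 and C14B4.2. Of these, C14B4.2 is an average of 2 probes with late differences of 2.68 and -0.05. Neither of its probes met the rule, and it left the set when every probe had to pass. The count of 19 genes higher at 8 h than at 6 h was 18 under each scaling, 11 at a limit of 0.5 and 9 within the 14 genes. The count of 20 genes higher on the middle arrays lay between 16 and 24 with other scalings or single arrays and was 12 within the 14. Median late minus early was 1.26, and 1.34 with quantile normalization. Late differences of single genes were recomputed 140 times, with quantile or equal-deviation scaling or with a late array left out. Of these, 1 changed sign, that of Y45F10B.8 without the 12 h array (-0.29), and 29 moved by more than the gene's residual SD. That SD contains the gap between 10 and 12 h, so genes with unlike late arrays had a wide limit. Without the 12 h array K02B2.6 went from 1.501 to 1.12 and D1009.t2 from 1.59 to 1.03, both under 1.2, and neither is among the 29. The count of 29 therefore does not measure how steady the set is. Fewer arrays or another limit enter these counts by construction, and beyond that the cause was not tested.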

Other observations

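The 11300 probes with no gene name in the annotation used here were put through the same limits. Of the 8054 measured on all arrays, 42 (0.521%) met the limits on the early and late differences, against 0.677% of the named genes before the named exception. Both late arrays were 1.2 or more above 0 h for 15 of the 42. The rule used these arrays and the share over all unnamed probes is not given, so nothing is read from this count. The middle arrays were 0.5 or more above the early ones for 30 of the 42, against 8.52% of all unnamed probes on all arrays, with a median of 0.68. The 2 h and 4 h arrays also served to choose these probes, so that difference is only partly free of the rule and was not tested. At 8 h 26 of the 42 (61.9%) were higher than at 6 h, against 49.2% of all unnamed probes on all arrays (median 0.11). Which genes these probes carry is unknown here.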
